A study of Mus musculus with 9 samples.

Results

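The interferon-induced and antigen presentation genes of cultured mouse tracheal myoepithelial cells were taken by symbol. They are the rows whose symbols name interferon receptors, STAT and IRF factors, RNA sensors, the Ifit, Ifitm, Ifi, Oas, Mx and Isg genes, the guanylate-binding and immunity-related GTPases, the H2 genes of the mouse major histocompatibility complex and the machinery that loads peptide onto class I molecules. The rule found 99 of the 13336 genes kept by the authors' filter, a mean of at least 3 SD in either group. Genes called measured below are those kept. Lef1KI libraries (n = 5) came from mice carrying an inducible Cre driven by ACTA2 (ACTA2-CreERT2) and a knock-in of the transcription factor gene Lef1 (Lef-1KI+/+), and WT libraries (n = 4) from mice carrying the same Cre and the ROSA-TG allele. All mice received tamoxifen on 5 days before harvest. Tracheal gland cells of 3 to 5 mice were pooled, cultured to passage 1 with 10 µM Y-27632 and with DMH-1, A83-01 and CHIR 99021 at 1 µM each, and sorted, so each library is a pool. The sorted cells were GFP- in Lef1KI and GFP+ in WT, so gate and genotype cannot be told apart. No source used here gives the genetic background of the mice. Levels are TPM, transcript abundance per length scaled to a fixed library total. Differences subtract the WT mean of log2(TPM + 1) from the Lef1KI mean, a scale that understates changes of low genes.

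Interferons signal through cell surface receptors to Janus kinases and STAT factors. Type I interferon acts through Ifnar1 and Ifnar2 and a complex of STAT factors and Irf9 that binds interferon-stimulated response elements, and interferon gamma acts through Ifngr1 and Ifngr2 and STAT dimers that bind gamma-activated sites. The induced genes restrict viruses and intracellular microbes and raise the display of peptides on class I molecules, which epithelial cells carry at all times. Class II molecules are best known from professional antigen-presenting cells.

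Lef1, the gene that defines the groups, had 139 to 312 TPM in Lef1KI and 0.38 to 0.55 TPM in WT libraries. Of 9 basal cell markers, Cdh1 rose (0.43, limma adjusted p 0.012), Ngfr fell (-1.07, 0.0305) and the rest, among them the abundant Krt5 and Krt14, did not pass. The summed TPM of 12 fibroblast markers was 1536 to 4246 in Lef1KI and 440 to 1113 in WT. Of these markers 10 rose and 1 fell, beside 6.73% and 1.24% of all genes. Of 12 endothelial markers listed, 9 were measured and 6 rose, beside 6.73% of all genes (summed TPM 36.05 to 110 in Lef1KI and 18.2 to 29.3 in WT). Of the 6, Cdh5, Emcn, Kdr, Plvap and Pecam1 met the authors' filter only through Lef1KI, where they are high. So did the fibroblast markers Postn and Thy1, while Ngfr met it only through WT. Of 17 macrophage markers listed, 6 were measured and 3 rose, beside 6.73% of all genes (summed TPM 69.97 to 253 in Lef1KI and 115 to 264 in WT). These were Lyz2 (7.96 ± 3.37 TPM in Lef1KI and 1.38 ± 1.16 TPM in WT), Cd14 (9.20 ± 2.02 TPM in Lef1KI and 4.47 ± 0.44 TPM in WT) and Coro1a, which stayed under 1 TPM on average in each group. Most of the macrophage sum was Cd68, at 93.7 ± 82.1 TPM in Lef1KI and 180 ± 60.9 TPM in WT, which did not pass. Adgre1, Itgam and Zbtb46, the only 1 of 7 dendritic cell markers measured, averaged under 1 TPM in each group and did not pass. For Adgre1 and Zbtb46 every Lef1KI library lay above every WT library, and for Itgam the groups overlapped. Lyz2, Coro1a and Adgre1 met the authors' filter only through Lef1KI, where they are high. Ptprc, Csf1r and the lymphocyte markers were not analysed here. The part of these markers in the results below was not tested, and in sorted bulk samples more cells of a type and more RNA per cell cannot be told apart. Of 6 measured myoepithelial markers, Mylk rose (2.55 ± 0.75 TPM in Lef1KI and 1.16 ± 0.41 TPM in WT, 0.70, limma adjusted p 0.0448). Myl9 (0.66), Tagln (0.51) and the abundant Krt17 (0.32) did not pass. Acta2 averaged 62.3 ± 31.2 TPM in Lef1KI and 129 ± 41.0 TPM in WT (SD) and did not pass either (-1.13, limma adjusted p 0.0834). Myh11 stayed under 1 TPM on average in each group, and Cnn1 and Oxtr were not analysed here.

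The promoters of 5 members are shown because these genes carry the contrasts described below: the neighbours Gbp2b and Gbp2, the IFITM gene Ifitm2, and the antiviral genes Isg15 and Ifit1. Each line gives the 150 bases before the RefSeq start site on GRCm38.p6, 5′ to 3′ on the gene's strand, and capitals mark matches to the core of the response element (GAAA, then NN, then GAAA, without gaps and on either strand).
Gbp2b, chr3:142594697-142594846, plus strand: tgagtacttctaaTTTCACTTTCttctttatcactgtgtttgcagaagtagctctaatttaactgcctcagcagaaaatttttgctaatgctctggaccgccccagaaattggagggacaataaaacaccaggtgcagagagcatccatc
Gbp2, chr3:142620513-142620662, plus strand: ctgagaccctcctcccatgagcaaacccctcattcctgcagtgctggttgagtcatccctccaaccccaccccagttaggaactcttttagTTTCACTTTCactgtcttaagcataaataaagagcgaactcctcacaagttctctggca
Ifitm2, chr7:140955962-140956111, minus strand: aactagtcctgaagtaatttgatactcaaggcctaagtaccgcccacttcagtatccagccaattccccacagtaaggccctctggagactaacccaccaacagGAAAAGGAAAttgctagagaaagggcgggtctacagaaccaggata
Isg15, chr4:156200819-156200968, minus strand: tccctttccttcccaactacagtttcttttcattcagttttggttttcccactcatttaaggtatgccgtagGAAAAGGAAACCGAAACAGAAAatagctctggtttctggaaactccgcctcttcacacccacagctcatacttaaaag
Ifit1, chr19:34640739-34640888, plus strand: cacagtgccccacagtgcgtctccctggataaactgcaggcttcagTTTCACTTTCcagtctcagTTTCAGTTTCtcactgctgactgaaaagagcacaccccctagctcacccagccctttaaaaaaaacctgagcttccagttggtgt
The GENCODE models of Gbp2, Ifitm2 and Ifit1 begin inside these windows, upstream of the RefSeq start. The same spelling occurs in Gbp2b and Gbp2 at different distances from the start, at -137 and -59. RefSeq promoters were found for 74 of the members. The element matched within 250 bases upstream in 26 of these (35.1%), against 936 of 27025 genes (3.46%). A gamma-activated site (TTCNNNGAA, which reads the same on both strands and could overlap the other motif) matched in 17 of the 74 (23%), against 8.13% of all genes. Of the 8 members with a promoter that were higher in Lef1KI, 4 held the response element, and so did 22 of the 66 that did not pass the test (33.3%). A match describes letters in a window and not a bound site.

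Most members did not pass the test, and those that did were all higher in Lef1KI. By limma with Benjamini-Hochberg adjustment over all genes (adjusted p under 0.05), 15 of the 99 rose, where 6.73% of all genes rose. None of the 99 fell (0 called by limma, where 1.24% of all genes fell). At an unadjusted limma p under 0.05, 4 were lower, beside 5.06% of all genes. The median difference of the members was 0.31 beside 0.14 for all genes, and 76.8% of their differences were positive, beside 69.6% for all genes. In 16 members every Lef1KI library lay above every WT library, beside 10.0% of all genes, and in 0 members every Lef1KI library lay below, beside 1.89% of all genes. The authors' filter kept a gene whose mean was at least 3 SD in either group. Of the 15, 4 (Ifitm6, Gbp6, Ifi203 and H2-K2) met it only through Lef1KI, where they are high, so that they are in the table at all depends on that group, and the other 11 met it in both. The 15 sat in few families: 3 of 5 IFITM genes, 3 of 4 Ifi200 genes, 4 of 11 class I genes outside the classical pathway, 3 of 11 guanylate-binding proteins, 1 of 5 immunity-related GTPases and 1 of 4 interferon receptors. The count of risen members depended on single libraries. It was 25 without Lef1KI E, 8 without WT B and 9 without WT E, beside 6.81%, 4.32% and 4.24% of all genes. With each library centred on its median, the median of all genes moved to -0.02, 10 members rose, beside 4.54% of all genes, and 1 fell (H2-DMb1), beside 2.49% of all genes.

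**Figure D1:**
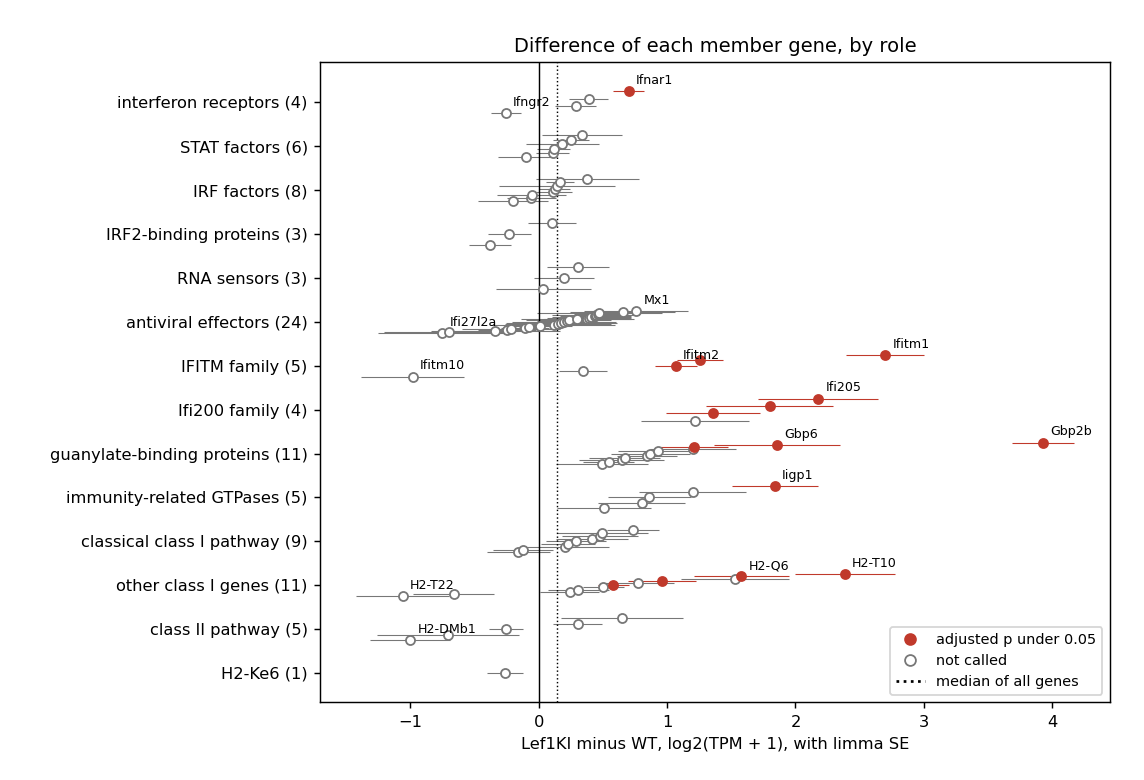
Lef1KI minus WT difference of each of the 99 members on the log2(TPM + 1) scale (x axis) with its limma standard error, by role (y axis, number of genes in brackets), where filled points passed an adjusted p of 0.05 and the dotted line is the median of all genes (0.14). The 15 filled points all lie right of 0, with Gbp2b at 3.92 farthest out, and the antiviral effectors spread from -0.75 to 0.76 with none filled.

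Of the receptors, the type I receptor chain Ifnar1 rose and the other chains did not pass. Ifnar1 (chromosome 16 from 91485238 to 91507441, mm10, plus strand) had 24.93, 25.69, 28.31, 26.11 and 22.04 TPM in Lef1KI A to E, against 14.13, 14.97, 16.74 and 15.12 TPM in WT A, B, D and E. The groups did not overlap, and even Lef1KI E, the lowest Lef1KI library, lay above all of WT. The difference was 0.70 ± 0.12 (SE, limma adjusted p 0.00513), and it stayed between 0.66 and 0.75 with any 1 library left out. In a fit with the library letter as a replicate block, which drops Lef1KI C, Ifnar1 lost its call (0.66, limma adjusted p 0.0575). Its partner chain Ifnar2 averaged 60.4 ± 11.8 TPM in Lef1KI and 48.6 ± 5.42 TPM in WT (SD, difference 0.29, limma adjusted p 0.298). The ligand-binding chain for interferon gamma, Ifngr1, averaged 55.9 ± 8.0 TPM in Lef1KI and 42.7 ± 7.78 TPM in WT (0.39, limma adjusted p 0.149). The second gamma chain, Ifngr2, went the other way without passing, at 29.7 ± 3.10 TPM in Lef1KI and 35.6 ± 2.68 TPM in WT (-0.25, limma adjusted p 0.212). Ifnar2, Ifnar1 and Ifngr2 are neighbours on chromosome 16, between 91372783 and 91565623 (mm10).

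None of the transcription factors below the receptors passed. Of 6 STAT genes 0 were called (0 with an unadjusted limma p under 0.05), and of 8 IRF genes 0 were called (0 unadjusted). Over all genes 6.73% were called higher and 1.24% lower, so these counts are near the background. Stat2 (difference 0.19), Stat3 (0.25), the latent factor Irf9 (-0.20), the gamma-induced factor Irf1 (0.38) and the type I amplifier Irf7 (0.14, and -0.02 under median centring) had limma adjusted p between 0.301 and 0.868. Irf1 was highest in a WT library, at 43.37 TPM in WT A. Of 3 genes for proteins that bind Irf2, Irf2bp1, Irf2bp2 and Irf2bpl, none was called, and Irf2bpl had an unadjusted p under 0.05 (difference -0.38). The cytosolic RNA sensors Ifih1 (0.31), Ddx58 (0.20) and Dhx58 (0.04) did not pass, and each was highest in Lef1KI C and lowest among Lef1KI in library E.

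The 24 antiviral effectors are the members left once the other roles were assigned by symbol, and include the genes most often used to read out a type I response. They held no call (0 by limma, 1 with an unadjusted p under 0.05), beside 6.73% of all genes called higher. The 1 was the exonuclease gene Isg20l2, which is in this set by its symbol alone. The median difference of the 24 was 0.21. The groups overlapped in 24 of 24, beside 88.1% of all genes. Isg15, a ubiquitin-like modifier, had 126.97, 135.79, 397.08, 145.51 and 63.38 TPM in Lef1KI A to E, against 148.52, 102.36, 108.46 and 152.01 TPM in WT A, B, D and E. Without Lef1KI C its difference of 0.20 was -0.16. Ifit1, which binds viral RNA caps, had 49.56, 59.96, 131.97, 56.63 and 30.25 TPM in Lef1KI A to E, against 50.07, 43.86, 31.08 and 48.36 TPM in WT A, B, D and E (0.44, limma adjusted p 0.436). Both genes were therefore highest in Lef1KI C and low in Lef1KI E, around a narrower WT range. The related Ifit3 (0.39), the tetherin gene Bst2 (0.41), the GTPase Mx1 (0.76), the 2′-5′ oligoadenylate synthetase Oas1a (0.15, and -0.01 under median centring), its relative Oasl2 (0.30), viperin Rsad2 (0.18) and Ifi35 (0.22) had limma adjusted p between 0.283 and 0.848. Mx1 passed without Lef1KI E (1.10, limma adjusted p 0.048). Ifi27 averaged 140 ± 38.2 TPM in Lef1KI and 161 ± 23.5 TPM in WT (-0.25), and its neighbour Ifi27l2a averaged 24.6 ± 13.3 TPM in Lef1KI and 43.2 ± 30.6 TPM in WT (-0.75, limma adjusted p 0.375). Ifi27l2a was lowest in Lef1KI E, at 7.38 TPM, and highest in WT E, at 87.36 TPM.

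**Figure D2:**
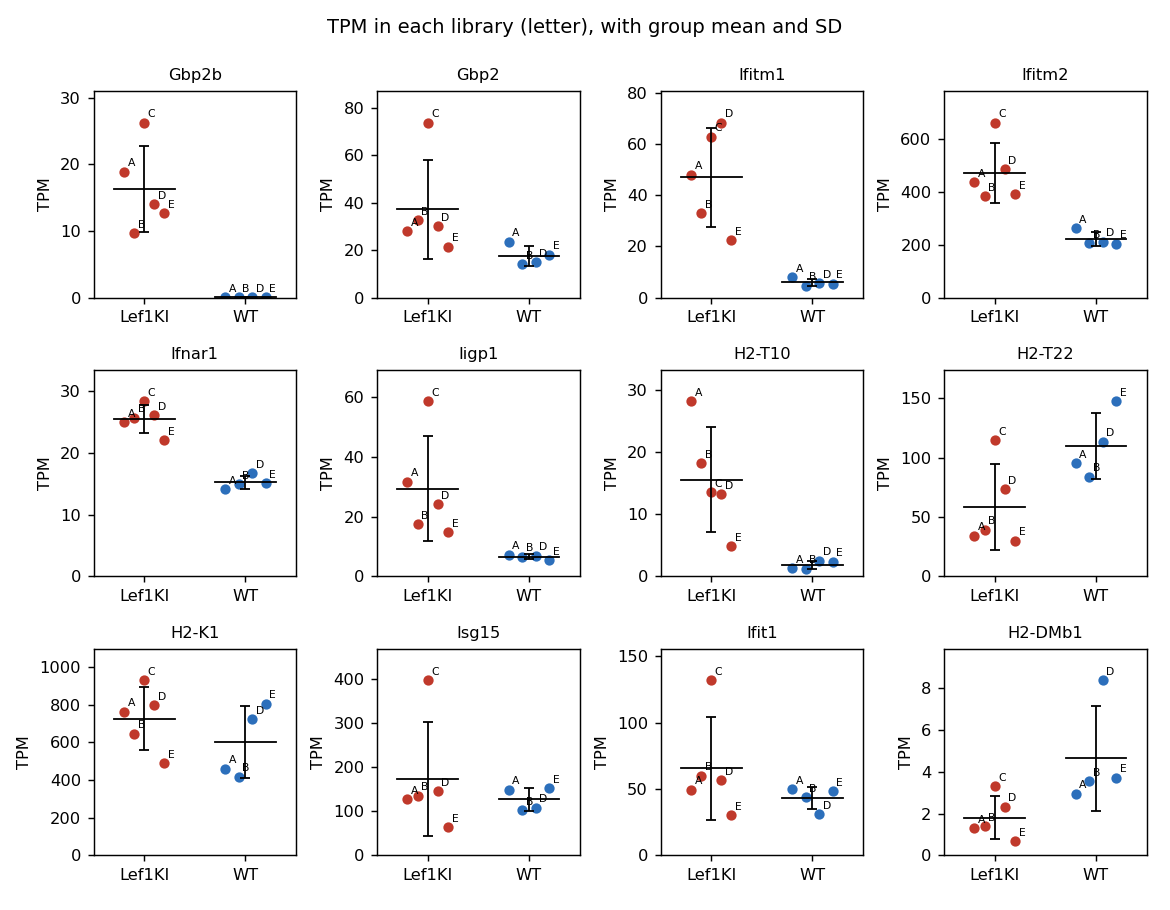
TPM (y axis, from 0) of 12 members in each library, Lef1KI left and WT right, with letters naming libraries and black bars for the group mean and SD. Gbp2b, Ifitm1, Ifitm2, Ifnar1, Iigp1 and H2-T10 show no overlap between groups, while Isg15 and Ifit1 are highest in Lef1KI C and lowest in Lef1KI E.

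Among the interferon-induced transmembrane (IFITM) genes, whose best studied members block viral entry at membranes, 3 of 5 rose, beside 6.73% of all genes. The most abundant of them did not. Ifitm1 (chromosome 7 from 140967221 to 140969825, mm10, plus strand) had 48.00, 32.96, 62.91, 68.47 and 22.54 TPM in Lef1KI A to E, against 8.06, 4.59, 5.70 and 5.51 TPM in WT A, B, D and E. Every Lef1KI library was above every WT library, with a difference of 2.70 ± 0.30 (SE, limma adjusted p 0.000776). Ifitm2 had 436.26, 384.48, 662.69, 486.72 and 392.42 TPM in Lef1KI A to E, against 262.60, 206.51, 211.64 and 204.17 TPM in WT A, B, D and E. These groups did not overlap either, and the difference was 1.07 ± 0.16 (SE, limma adjusted p 0.00306). Ifitm6 was low, at 1.66 ± 0.71 TPM in Lef1KI and 0.083 ± 0.097 TPM in WT (SD, difference 1.26, limma adjusted p 0.00224), and was listed at 0 in WT A and WT B. It passed the authors' filter only through Lef1KI. Ifitm3, the main restriction factor of the family and second only to B2m in mean level among the members at 1466 ± 248.7 TPM in Lef1KI and 1170 ± 300 TPM in WT, did not pass (0.34, limma adjusted p 0.291). These 4 genes lie together on chromosome 7 between 140954837 and 141017924 (mm10), so neighbours in the cluster differed in their values. Ifitm10 lies farther along the chromosome and averaged 25.2 ± 12.9 TPM in Lef1KI and 48.9 ± 19.4 TPM in WT (-0.98, limma adjusted p 0.17). The summed level of the fibroblast markers was higher in the same 5 libraries, although the marker Fbln1 fell, and their part in these rises was not tested.

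Of the Ifi200 genes, which encode DNA-binding proteins of a cluster on chromosome 1 (173747293 to 174031810, mm10), 4 were measured and 3 rose, beside 6.73% of all genes. Ifi206, Ifi208, Ifi213 and Ifi214, which match the rule by name, were not analysed here. Ifi205 had 15.86, 10.31, 62.62, 25.89 and 11.03 TPM in Lef1KI A to E, against 5.73, 2.0, 3.38 and 4.09 TPM in WT A, B, D and E (difference 2.18 ± 0.47 SE, limma adjusted p 0.017). Lef1KI C was far above the rest, yet the lowest Lef1KI library was still above all of WT. Ifi203 averaged 25.6 ± 14.5 TPM in Lef1KI and 6.98 ± 5.27 TPM in WT (1.80, limma adjusted p 0.0497), and its groups overlapped. Ifi204 averaged 24.0 ± 16.1 TPM in Lef1KI and 7.69 ± 1.87 TPM in WT (1.36, limma adjusted p 0.0471). These last calls were close to the threshold and held in 2 (Ifi203) and 3 (Ifi204) of 9 leave-one-out fits and not under median centring. Ifi205 lost its call without WT B (limma adjusted p 0.0592). Ifi202b, at 65.7 ± 27.9 TPM in Lef1KI and 29.7 ± 17.9 TPM in WT, did not pass (1.22, limma adjusted p 0.11). The 4 genes are close relatives, and the counting could divide shared reads among them; their summed TPM was 66.74 to 265.38 in Lef1KI and 28.24 to 77.28 in WT, with the groups overlapping.

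Guanylate-binding proteins are large GTPases that attack the vacuoles and membranes of intracellular microbes. All 11 had positive differences, from 0.49 to 3.92, beside 69.6% of all genes. At an unadjusted limma p under 0.05, 9 were higher, beside 18.7% of all genes, and 3 were called, beside 6.73%. Gbp2b (chromosome 3 from 142594847 to 142619179, mm10, plus strand) stood apart from its family. It had 18.87, 9.66, 26.27, 14.05 and 12.65 TPM in Lef1KI A to E, against 0.09, 0.08, 0.08 and 0.07 TPM in WT A, B, D and E. The gene was near 0 in every WT library and present in every Lef1KI library, and the difference was 3.92 ± 0.24 (SE, limma adjusted p 8.8e-06). By exact two-sided permutation its p was 0.0159, the lowest that 9 libraries allow. Every member whose groups did not overlap reached the same value. Its immediate neighbour Gbp2, whose start lies just beyond the end of Gbp2b, was expressed in both groups at 28.04, 32.67, 73.79, 30.09 and 21.48 TPM in Lef1KI A to E, against 23.51, 14.17, 14.85 and 18.09 TPM in WT A, B, D and E. The Gbp2 groups overlapped, at Lef1KI E and WT A, and its difference of 0.93 did not pass (limma adjusted p 0.0958). Gbp3, next on the other side, averaged 25.3 ± 15.3 TPM in Lef1KI and 15.5 ± 2.07 TPM in WT (0.49, limma adjusted p 0.417). The summed TPM of Gbp2b and Gbp2, chosen after the values were seen, was 34.13 to 100.06 in Lef1KI and 14.25 to 23.60 in WT, without overlap, and Gbp2 itself was not higher in WT.

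The other calls of the family lay in its second cluster, on chromosome 5. Gbp9 had 6.99, 4.61, 12.47, 6.95 and 3.79 TPM in Lef1KI A to E, against 2.59, 1.99, 2.14 and 2.18 TPM in WT A, B, D and E (1.21 ± 0.27 SE, limma adjusted p 0.0183). Its groups did not overlap, but the call held in 6 of 9 leave-one-out fits. Gbp6 had 14.82, 9.19, 26.28, 10.90 and 5.39 TPM in Lef1KI A to E, against 3.92, 3.16, 4.92 and 0.26 TPM in WT A, B, D and E (1.86 ± 0.49 SE, limma adjusted p 0.044). The WT E value was far below the other WT libraries, and the call held in 2 of 9 leave-one-out fits. A second row that the table also names Gbp6 is Gm43302 in GENCODE M21, a model that overlaps Gbp6 and Gbp10, so reads could be divided among them. Summed over Gbp6, Gbp10 and Gm43302, the levels were 9.06 to 43.66 TPM in Lef1KI and 5.22 to 8.8 TPM in WT, without overlap.

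Of the 5 immunity-related GTPases, which act on the vacuoles of parasites and bacteria, Iigp1 rose, where 6.73% of all genes rose. It had 31.83, 17.55, 58.68, 24.17 and 14.90 TPM in Lef1KI A to E, against 7.28, 6.70, 6.96 and 5.45 TPM in WT A, B, D and E. WT libraries kept within a narrow range that no Lef1KI library reached, and the difference was 1.84 ± 0.33 (SE, limma adjusted p 0.00708). Ifi47 averaged 15.1 ± 10.6 TPM in Lef1KI and 5.30 ± 2.33 TPM in WT (1.20, limma adjusted p 0.114), Igtp 21.5 ± 12.2 TPM in Lef1KI and 10.8 ± 2.64 TPM in WT (0.80, 0.187), and Irgm1 72.4 ± 49.5 TPM in Lef1KI and 43.4 ± 3.10 TPM in WT (0.51, 0.413). In all 5 genes Lef1KI C was the highest and Lef1KI E the lowest Lef1KI library, and without Lef1KI E Ifi47 and Igtp passed (1.49 and 1.05, limma adjusted p 0.0322 and 0.0464). The models of Igtp and Irgm2 overlap on the same strand.

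Of the 9 genes of the classical class I pathway none was called (0 by limma, 1 with an unadjusted p under 0.05), beside 6.73% of all genes called higher and 1.24% lower. The light chain gene B2m had 1924, 1516, 2315, 2013 and 921.41 TPM in Lef1KI A to E, against 959.78, 992.43, 1348 and 1858 TPM in WT A, B, D and E. The lowest library of all was a Lef1KI library and the highest was another (0.42, limma adjusted p 0.381). H2-K1, a heavy chain, had 762.89, 647.61, 930.29, 799.53 and 488.84 TPM in Lef1KI A to E, against 460.84, 418.06, 724.17 and 806.05 TPM in WT A, B, D and E (0.29, limma adjusted p 0.46). The other classical heavy chain gene, H2-D1, averaged 562 ± 170 TPM in Lef1KI and 606 ± 160 TPM in WT (-0.12, limma adjusted p 0.774). The peptide transporter genes Tap1 (-0.16) and Tap2 (0.23), the immunoproteasome genes Psmb8 (0.21) and Psmb9 (0.50), and the class I transactivator Nlrc5 (0.48) had limma adjusted p between 0.341 and 0.734. Psmb10, the third immunoproteasome subunit, averaged 28.6 ± 8.36 TPM in Lef1KI and 16.6 ± 3.61 TPM in WT without overlap and missed the threshold narrowly (0.74, limma adjusted p 0.0523).

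The other class I genes, which encode nonclassical molecules or pseudogenes, had 4 of 11 called higher and 0 lower by limma (1 lower at an unadjusted p under 0.05). Over all genes 6.73% were called higher and 1.24% lower, and 5.06% were lower at the unadjusted threshold. H2-T10 (chromosome 17 from 36115876 to 36121465, mm10, minus strand) had 28.13, 18.19, 13.52, 13.23 and 4.85 TPM in Lef1KI A to E, against 1.32, 1.23, 2.54 and 2.40 TPM in WT A, B, D and E. Its groups did not overlap and its highest library was Lef1KI A rather than C (difference 2.38 ± 0.39 SE, limma adjusted p 0.00424). GENCODE classes H2-T10 as a polymorphic pseudogene, a locus that is intact in some mouse strains and not in others. H2-T22 (chromosome 17 from 36037128 to 36042747, mm10, minus strand), a close relative in the same cluster, went the other way, with 34.15, 39.39, 114.65, 73.40 and 30.17 TPM in Lef1KI A to E, against 95.10, 83.89, 113.36 and 147.22 TPM in WT A, B, D and E. Only Lef1KI C reached the WT range, and the difference of -1.06 ± 0.36 (SE, limma adjusted p 0.105) passed without Lef1KI C (-1.35, limma adjusted p 0.0184). Next to H2-T22, H2-T23, which encodes the mouse counterpart of HLA-E, averaged 74.4 ± 32.9 TPM in Lef1KI and 111 ± 25.8 TPM in WT (-0.66, limma adjusted p 0.232). Since the counting could divide reads between H2-T10 and H2-T22, their sum was also taken, after the values were seen. It was 35.02 to 128.17 TPM in Lef1KI and 85.12 to 149.62 TPM in WT, with a difference of -0.69 and overlap between the groups.

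H2-Q6, of the Q cluster, rose, with 6.91, 4.82, 20.53, 10.01 and 4.36 TPM in Lef1KI A to E, against 1.76, 1.41, 2.96 and 2.11 TPM in WT A, B, D and E (1.58 ± 0.37 SE, limma adjusted p 0.0252). The groups did not overlap, but the call held in 5 of 9 leave-one-out fits. Its near copy H2-Q7, named here because it fell just outside the threshold, averaged 28.8 ± 14.4 TPM in Lef1KI and 8.88 ± 4.05 TPM in WT (1.53, limma adjusted p 0.0502). The summed TPM of the 5 measured Q genes was 44.28 to 150.46 in Lef1KI and 29.18 to 53.25 in WT, with overlap. The remaining calls were pseudogenes of low level. The polymorphic pseudogene H2-Bl averaged 1.64 ± 0.33 TPM in Lef1KI and 0.758 ± 0.162 TPM in WT (0.58, limma adjusted p 0.014), and H2-K2 averaged 3.35 ± 1.45 TPM in Lef1KI and 1.21 ± 0.671 TPM in WT (0.96, limma adjusted p 0.0485). Both lost their calls under median centring, at differences of 0.42 and 0.80. The call of H2-K2 held in 2 and that of H2-Bl in 8 of 9 leave-one-out fits. H2-K2 resembles H2-K1, which lies next to it at far higher levels, so its value is uncertain.

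Of the 5 genes of the class II pathway none was called (0 by limma, 1 with an unadjusted p under 0.05), beside 6.73% of all genes called higher and 1.24% lower. H2-DMb1, part of the peptide editor of class II molecules, had 1.29, 1.39, 3.32, 2.33 and 0.68 TPM in Lef1KI A to E, against 2.95, 3.55, 8.39 and 3.73 TPM in WT A, B, D and E. The groups overlapped only at Lef1KI C and WT A, and the difference of -1.0 ± 0.31 (SE) had a limma adjusted p of 0.0781, which became 0.0314 under median centring and 0.0471 without Lef1KI C. H2-DMb1 passed the authors' filter only through WT, where it is higher. Its partner H2-DMa had the opposite sign (0.30, limma adjusted p 0.35). The beta chain gene H2-Ab1 averaged 5.66 ± 5.49 TPM in Lef1KI and 7.90 ± 3.72 TPM in WT (-0.71, limma adjusted p 0.448), and H2-Eb1 averaged 15.6 ± 14.1 TPM in Lef1KI and 7.44 ± 1.89 TPM in WT (0.65, limma adjusted p 0.419). H2-Ab1 and H2-Eb1 shared the highest Lef1KI library, D, at 14.58 and 39.97 TPM. Ifi30, a lysosomal thiol reductase gene, averaged 97.8 ± 14.4 TPM in Lef1KI and 117 ± 14.3 TPM in WT (-0.25). H2-Aa, Cd74 and Ciita were not analysed here. H2-Ke6 matched the rule by name but encodes a metabolic enzyme (-0.26, limma adjusted p 0.289).

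**Figure D3:**
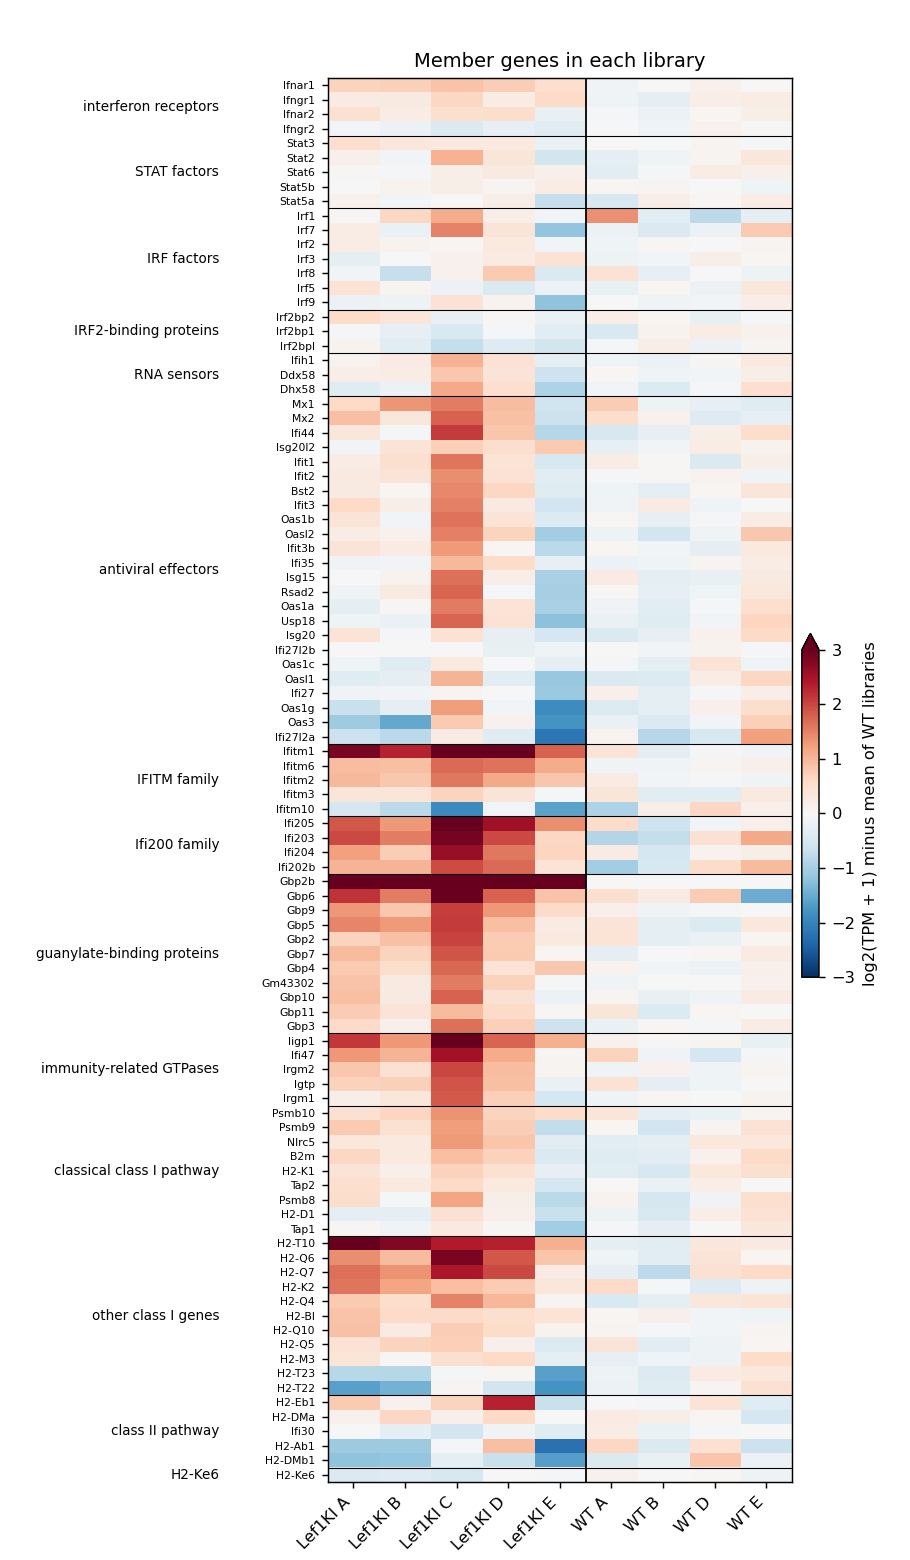
Of the 99 members, 97 (rows, by role) in the 9 libraries (columns, Lef1KI left of the line), coloured by log2(TPM + 1) minus the mean of the WT libraries, with values above 3 drawn as 3. Gbp2b, Ifitm1 and H2-T10 are raised in all 5 Lef1KI libraries, while the antiviral effectors are raised mainly in Lef1KI C and lowered in Lef1KI E.

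The spread among Lef1KI libraries was ordered in the same way for most members. Lef1KI C had the highest Lef1KI value of 70 of the 99 (70.7%, beside 23.9% of all genes), and Lef1KI E the lowest of 76 (76.8%, beside 15.8% of all genes). Over all 9 libraries, 62 members were highest in Lef1KI C (62.6%, beside 20.5% of all genes). The median member lay 0.37, 0.24, 1.05, 0.46 and -0.29 from the WT mean in Lef1KI A to E, against -0.04, -0.20, 0.02 and 0.16 in WT A, B, D and E (log2 scale). The same medians for all genes were 0.01, 0.08, 0.23, 0.15 and 0.24 in Lef1KI A to E. For the 24 antiviral effectors the medians were 0.01, 0.01, 1.42, 0.33 and -0.72 in Lef1KI A to E, so these genes were on both sides of WT within a single genotype. For the 11 guanylate-binding proteins they were 0.89, 0.67, 1.89, 0.76 and 0.24, all above 0. Of the 6 members called in every fit run, 4 were also highest in Lef1KI C, while Ifitm1 was highest in Lef1KI D and H2-T10 in Lef1KI A.

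**Figure D4:**
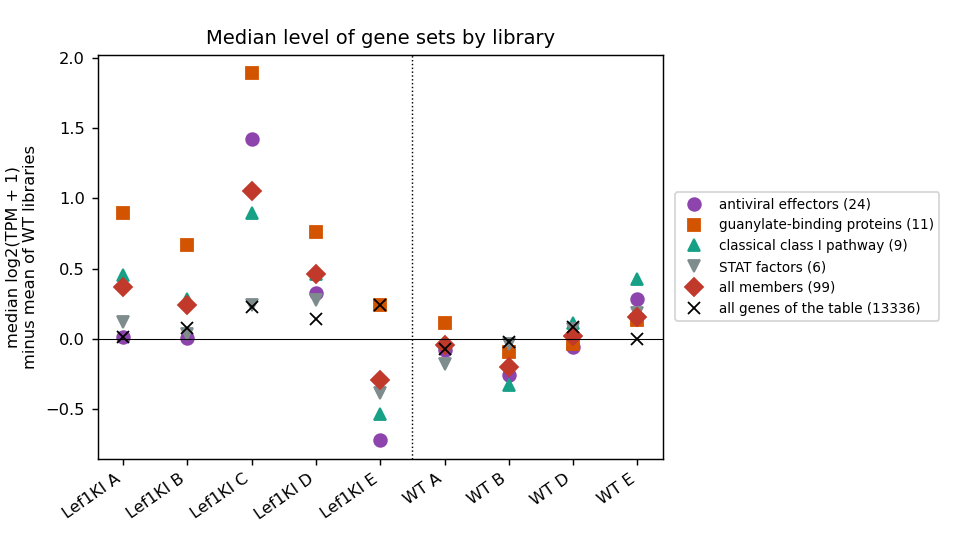
Median deviation from the WT mean on the log2(TPM + 1) scale (y axis) of gene sets in each library (x axis, Lef1KI left of the dotted line), with the number of genes in brackets. The antiviral effectors reach 1.42 in Lef1KI C and -0.72 in Lef1KI E, whereas the guanylate-binding proteins stay above 0 in all 5 Lef1KI libraries and all genes stay between -0.07 and 0.24.

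Of 84 measured genes of the same pathways outside the rule, 7 rose (8.33%) and 0 fell by limma, near the shares over all genes (6.73% and 1.24%). Of 10 genes of interferon receptor signalling, Jak2, a kinase of the gamma receptor, rose (18.1 ± 4.56 TPM in Lef1KI and 9.55 ± 1.47 TPM in WT, difference 0.84, limma adjusted p 0.0181). Of 12 measured genes of nucleic acid sensing, 3 rose. They were the kinase gene Ikbke (24.99 ± 6.58 TPM in Lef1KI and 9.52 ± 3.22 TPM in WT, 1.31, limma adjusted p 0.00793), the nucleic acid sensor Zbp1 (15.6 ± 9.95 TPM in Lef1KI and 4.55 ± 2.21 TPM in WT, 1.49, 0.0389) and Tmem173, the gene of STING (14.6 ± 3.22 TPM in Lef1KI and 7.68 ± 2.38 TPM in WT, 0.86, 0.0416). Of 40 other interferon-induced genes, 2 rose: Slfn5 (8.11 ± 6.16 TPM in Lef1KI and 1.02 ± 0.54 TPM in WT, 1.99, limma adjusted p 0.01) and the nucleotide hydrolase gene Samhd1 (39.2 ± 11.8 TPM in Lef1KI and 18.7 ± 2.29 TPM in WT, 0.99, 0.00983). Slfn5 met the authors' filter only through Lef1KI, where it is high. Of 22 measured genes of antigen processing and costimulation, Cd80, a costimulatory ligand, rose (22.6 ± 15.8 TPM in Lef1KI and 5.43 ± 2.30 TPM in WT, 1.69, limma adjusted p 0.0351).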

How the data were processed

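The authors deposited log2(TPM + 1) values per gene and library, with group means and SDs, also log2; per the submitters' processing notes RSEM and mm10 were used, while no source used here names the aligner or annotation release. From the values, TPM under 50 came out in whole hundredths for 100% of entries (tolerance 0.01 of a hundredth), and each gene kept has a mean of at least 3.002 SD in 1 group, which favours genes with little spread and can admit a gene through the group where it is high. TPM keep no read counts, so depth is unknown and errors are SDs between libraries. Deposited columns carry letters that no label ties to replicate numbers; they were assigned to groups by name.

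Groups were compared over all 13336 genes with limma 3.58.1 in R 4.3.3 (intensity trend, all 9 libraries, group as the only term, two-sided, Benjamini-Hochberg over all genes). Permutation tests were exact and run for each member, and only that of Gbp2b is given. The fit was also run on simulated data, and the outcome is not given here. Gene models were those of GENCODE M21 and promoters those of RefSeq, GRCm38.p6. Alternatives were other scalings, pseudocounts of 0.1 and 5, a filter at 1 TPM, other variance priors, library weights, a letter block and each library left out. Members, lists and tests were chosen with earlier results of these data known. Named genes are the members that passed, the 4 most positive and 4 most negative differences at 1 TPM or more, members fixed by role (2 members are not reported here by name) and the called genes of the pathway lists; Irf2bpl and its relatives, Isg20l2, Dhx58, Ifi30, Ifi202b, Irgm2, Gbp10, Gm43302, H2-Q7 and H2-Ke6 fall outside this rule and were added once values were known. Each library is 1 pool of mice, so p-values measure the spread between pools.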

Additional observations from a re-analysis of the deposited data

Results flagged for a closer look

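In 4 of 120 gene and group pairs examined, a single library stood apart from the rest of its group by the gap to its nearest neighbour; chance alone flags about 1 in 20 groups. Psmb10 was high in Lef1KI C, at 43.3 TPM beside 26.7 TPM in the next Lef1KI library. Tap2 and Ifi27 were low in Lef1KI E, at 20.9 and 72.9 TPM beside 37.7 and 149 TPM in the next. Ifitm2 was high in WT A, at 263 TPM beside 212 TPM in the next WT library.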

How the results depend on the processing

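The 6 members Gbp2b, Ifitm1, Ifitm2, Ifitm6, H2-T10 and Iigp1 kept their call in each of the 18 alternatives that tested them (a filter at 1 TPM removed Ifitm6, which is in the table only through Lef1KI). The number of members risen, 15 as reported, was 8 to 25 with 1 library left out, where 4.24% to 10.6% of all genes rose. It was 26 with library weights, under which 13.1% of all genes rose. The number fallen, 0 as reported, was 0 to 2 with 1 library left out, where 0.472% to 2.02% of all genes fell. It was 1 under median centring and 1 under trimmed-mean scaling (H2-DMb1 in both), and 3 with library weights. Of all genes, 2.49%, 2.05% and 4.4% fell under these settings, in the same order. Deviations of libraries with the same letter correlated at -0.26 (A), 0.02 (B), 0.26 (D) and -0.15 (E), and D alone correlated best with its own letter, so pairing by letter was not established. With the letter as a replicate block, which drops Lef1KI C, 12 members rose, beside 3.29% of all genes, and 2 fell, beside 0.352%. Under the block Ifnar1 lost its call (0.66, limma adjusted p 0.0575). Differences changed sign under median centring for Oas1a (-0.00965) and Irf7 (-0.0159), and under trimmed-mean scaling for Irf7 (-0.00812). With the block they did for Oasl2 (-0.00208), Psmb8 (-0.0352), Isg15 (-0.16), Stat2 (-0.0307), Rsad2 (-0.22), Oas1a (-0.20) and Irf7 (-0.20). With 1 library left out they spanned 0 for H2-D1 (-0.276 to 0.0191), Irf7 (-0.20 to 0.48), Irf9 (-0.359 to 0.0527), Isg15 (-0.16 to 0.50), Oas1a (-0.20 to 0.43), Oasl2 (-0.00208 to 0.637), Psmb8 (-0.0352 to 0.458), Rsad2 (-0.22 to 0.47), Stat2 (-0.0307 to 0.371) and Tap1 (-0.271 to 0.0659). None of these 10 genes was called as reported. The differences given for the block equal those of the fit without Lef1KI C, the library that the block drops, so they are not a separate result. The cause of the sign changes was not tested.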
